A study of Mus musculus with 42 samples.

Results

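B cells from the spleens of old and young wild-type mice were compared across all genes. The comparison used the 7 libraries whose titles name wild-type B cells, 3 from old and 4 from young animals, of 42 libraries in the series. The other libraries hold T cells, the remaining cells (called non-BT cells in the labels), and B cells of animals with Psmb8 G201V/G201V; this gene codes for β5i, an immunoproteasome subunit, and these animals are called homozygous below. Wild type means Psmb8 +/+, and 6 of the 7 libraries carry that genotype label. The library of young replicate 4 is titled wild type but its genotype label reads Psmb9 +/+, and it was kept in the group its title gives. No animal was treated. The labels give the ages only as Old and Young. The strain, the sex and the method of cell separation are not given in the sources used here.

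The spleen of a mouse holds mostly follicular B cells, which recirculate and answer protein antigens with T cell help, and marginal zone B cells, which respond fast to blood-borne antigens. With age, cells that have met antigen build up: memory cells, plasma cells that secrete antibody, and age-associated B cells, a population marked by the transcription factor T-bet (Tbx21) and the integrin CD11c (Itgax). Germinal centres, where B cells mutate their antibody genes and are selected, are known to form less readily in old mice.

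The deposited values were FPKM, the fragments mapped to a gene scaled by its transcript length and by the mapped fragments of the library. The depth estimated from these values was 15610000 to 16850000 fragments in old and 18170000 to 22280000 in young wild-type B libraries, and 11157 to 11602 genes per library reached 1 FPKM. The mean log2(FPKM + 1) of 18 B lineage genes lay at 8.81 to 8.98 in the B libraries, 3.38 to 4.40 in the wild-type T cell libraries and 3.69 to 4.18 in the non-BT libraries, so the B cell label held. T cell markers lay at 1.96 to 2.71 in the B libraries and 8.05 to 8.4 in the T cell libraries. Macrophage markers were not lower in the B libraries (3.59 to 4.90) than in the non-BT libraries (2.75 to 3.88).

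One old animal stood apart. Old replicate 2 held Xist, the RNA of the inactive X chromosome, at 4.10 FPKM, against at most 0.01 in the other 6 libraries. Its Y-linked Ddx3y was at 0.08 FPKM against 23.2 to 44.2, and its Eif2s3y at 0.07 against 39.1 to 54.0. The T cell and non-BT libraries of the same animal number showed the same pattern. The other 6 libraries therefore carried Y-linked RNA and this one did not, so sex differed within the old group. Old replicate 2 also had the lowest mean correlation with the other wild-type B libraries (Pearson's r across genes of 0.9555, against 0.9614 to 0.9681). Results are given with and without it where it bears on them. The numbers in the library names form 3 unbroken runs: old replicates 1 and 2 lie in the first, old replicate 3 with young replicates 1 and 2 in the second, and young replicates 3 and 4 in the third. What these numbers stand for is not stated. Age can be compared within the second run only, as 1 library against 2.

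No gene passed the threshold. Of 12269 genes tested with limma on log2(FPKM + 1) over all 14 B cell libraries, 0 (0%) differed between old and young wild-type B cells at a Benjamini-Hochberg adjusted p under 0.05, and the lowest adjusted p of any gene was 0.526. An unadjusted p under 0.05 was found for 768 genes, of which 269 (2.19%) were higher and 499 (4.07%) lower in old cells. Every old library lay above every young one for 272 genes (2.22%) and below for 524 (4.27%). The median log2 fold change over all tested genes was -0.0245. The median standard error was 0.201 and the median half-width of the 95% interval was 0.431 on the log2 scale. For 9993 genes (81.4%) the whole interval lay within 1 log2 unit of no difference. This share was 65.5% among genes under 10 FPKM and 94.3% among genes at 10 to 100 FPKM. Without old replicate 2 the result was again 0 calls, and 545 genes had an unadjusted p under 0.05. The labels number the libraries of a group and say no more of where they came from, so p-values measure the spread between these samples. The old group also holds libraries of both sexes and of more than 1 run, and the part of either in its spread was not tested.

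**Figure D1:**
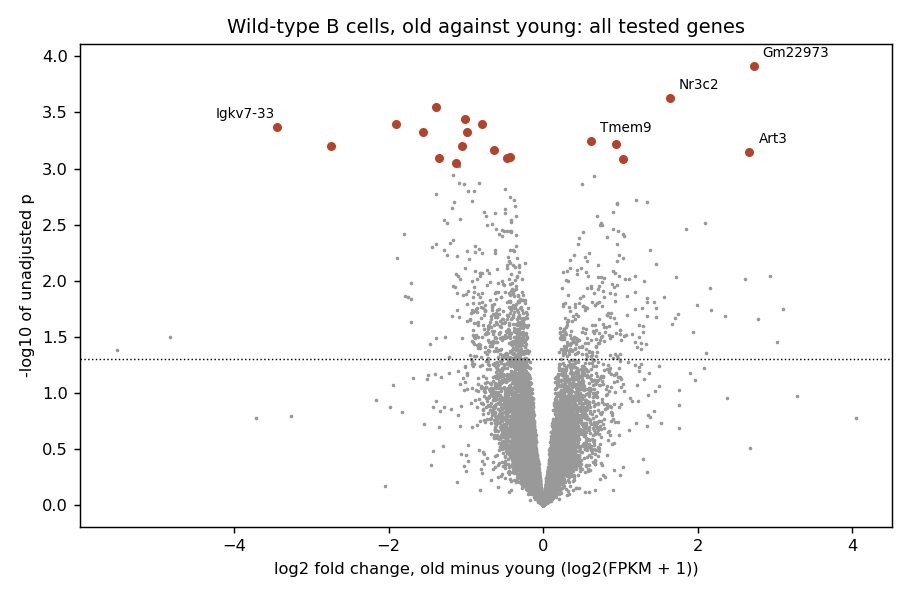
Each of the 12269 tested genes is a point, with the log2 fold change of old minus young wild-type B cells on the x axis, the -log10 of its unadjusted p on the y axis, and a dotted line at the unadjusted threshold. The 20 genes with the smallest p are drawn in red, and all of them have an adjusted p of at least 0.5255.

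Psmb8, the gene that the study varies, was measured at 731, 853 and 788 FPKM in the old libraries and at 648, 717, 648 and 675 FPKM in the young ones (chromosome 17, 34197721 to 34201454, GRCm38). All 3 old libraries lay above the 4 young ones. The log2 fold change was 0.23 (SE 0.11, 95% interval -0.0004 to 0.47, limma adjusted p = 0.798), and 0.18 without old replicate 2. Psmb9 (β1i), another inducible subunit, was at 216, 359 and 227 FPKM in old and 176 to 224 FPKM in young cells, with old replicate 1 within the young range and a log2 fold change of 0.38 (SE 0.24). Psmb10 (β2i) had one of 0.07 (SE 0.10). The 14 genes of the 20S core had a median of 0.01 and the 18 genes of the 19S regulator a median of -0.06.

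The 20 genes with the smallest unadjusted p are described next, as genes that did not pass the threshold. Their adjusted p ran from 0.5255 to 0.5505. By values 6 were higher and 14 lower in old cells, and 15 were protein coding. In all 20 the ages did not overlap, which genes chosen by p tend to show. With the run of library numbers as a covariate all 20 had the same sign of difference. Here and below, that fit takes its run terms from B libraries of both genotypes. Its wild-type value is therefore not a comparison of wild-type libraries within the second run alone. These genes do not overlap within that run either, so their choice favours this outcome. Leaving out 1 library cannot turn the sign where the ages do not overlap.

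Nr3c2, the mineralocorticoid receptor, was at 4.38, 10.2 and 4.30 FPKM in old and 2.60, 0.85, 0.98 and 0.75 FPKM in young B cells (chromosome 8, 76899442 to 77245012). The group means differed 4.86-fold, and the log2 fold change was 1.64 (SE 0.34, limma adjusted p = 0.526). Old replicate 2 was highest, and without it the log2 fold change was 1.28. In wild-type T cells Nr3c2 had a log2 fold change of 1.60 (SE 0.32, limma adjusted p = 0.0226), and in non-BT cells one of 0.03. Art3, a member of the ADP-ribosyltransferase family, was at 5.48, 52.1 and 4.76 FPKM in old cells against 0.57, 0.44, 1.38 and 1.82 FPKM. Old replicate 2 was far above the rest, and the log2 fold change of 2.67 (SE 0.62) was 1.63 without it. Rgmb, a co-receptor for bone morphogenetic proteins, was at 4.94, 7.44 and 6.505 FPKM against 1.61, 3.33, 3.01 and 3.30 FPKM. Here the 3 old libraries were close to each other, with a log2 fold change of 0.95 (SE 0.22). Tmem9, a lysosomal membrane protein, was at 27.0, 21.8 and 25.6 FPKM in old and 14.9, 16.3, 16.4 and 15.7 FPKM in young cells. Its young values span a narrow range, all below the old ones, and its log2 fold change was 0.62 (SE 0.14). The other 2 higher genes were the processed pseudogene Gm5228 (log2 fold change 1.03) and the small nuclear RNA gene Gm22973 (2.73). A short transcript such as Gm22973 rests on few fragments, and it was listed at 0 in 3 of the 4 young libraries.

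Among the lower genes, Sesn1 was the most abundant. It encodes sestrin 1, a p53 target that restrains the growth kinase mTORC1. It was at 48.9, 40.5 and 58.3 FPKM in old cells against 96.7, 104, 94.6 and 94.9 FPKM in young cells (chromosome 10, 41809935 to 41908424). The old mean was 0.504 times the young mean, with a log2 fold change of -0.99 (SE 0.22, limma adjusted p = 0.526). It was -0.86 without old replicate 2 and -0.47 with run as a covariate. That fit also draws on homozygous cells, whose second-run values were 96.3 FPKM in old and 89.0 and 73.4 FPKM in young cells. In wild-type T cells Sesn1 had a log2 fold change of -1.20 (SE 0.22, limma adjusted p = 0.013), and in non-BT cells one of -0.48. Fbxl20, a substrate adapter of an SCF ubiquitin ligase, was at 5.14, 8.61 and 7.07 FPKM against 13.2, 15.2, 14.5 and 16.6 FPKM. Every old value was well under every young one (log2 fold change -1.02, SE 0.22). Msrb2, a mitochondrial enzyme that repairs oxidised methionine, was at 7.22, 4.99 and 6.11 FPKM against 10.7, 10.8, 13.4 and 10.2 FPKM (log2 fold change -0.79, SE 0.17). The tRNA splicing endonuclease subunit Tsen15 was at 14 to 14.7 FPKM in the old and 21.01 to 25.8 FPKM in the young libraries. Sufu, an inhibitor of hedgehog signalling, had a log2 fold change of -0.47, and Tcirg1, a subunit of the vacuolar proton pump, one of -0.43. The chemokine Ccl24 (-1.55), the extracellular chaperone clusterin (Clu, -1.35), the receptor kinase Grk3 (-1.13) and the potassium channel Kcnk13 (-1.05) were lower but stood at or under 5.45 FPKM in every wild-type library. The predicted genes Gm20538, Gm37939 and Gm27286 completed the list. Gm20538 was listed at 0 in all old wild-type libraries, and also in all young and old homozygous B libraries. The last lower gene, the kappa segment Igkv7-33, is described with the immunoglobulin genes.

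**Figure D2:**
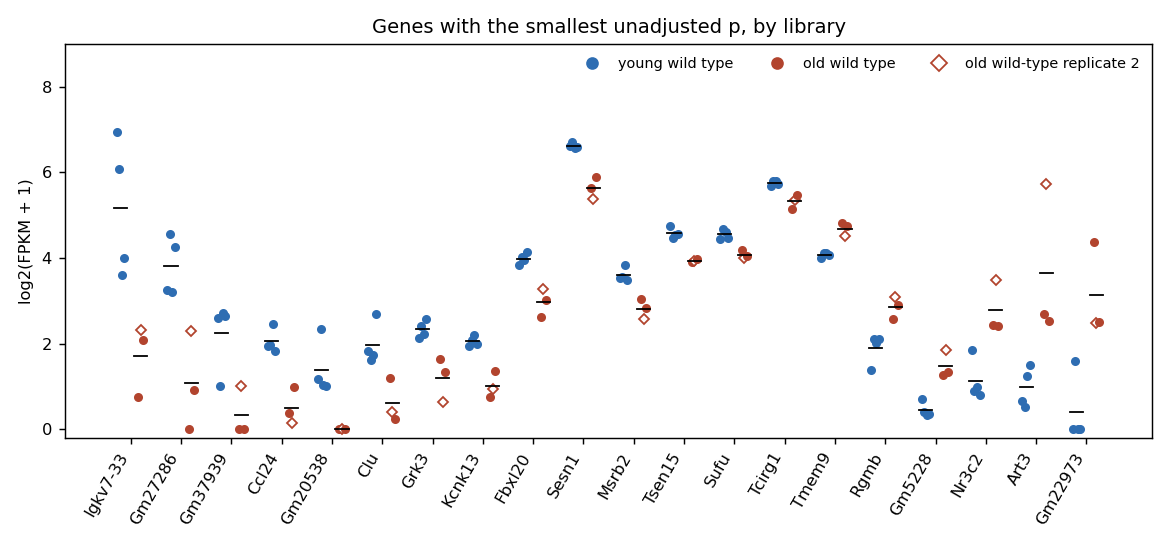
Log2(FPKM + 1) of the 20 genes with the smallest unadjusted p in each wild-type B library, ordered by log2 fold change; black lines mark group means, and old replicate 2 is an open diamond. The ages do not overlap in any of the 20 genes, and old replicate 2 sets much of the old mean of Art3.

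Genes of age-associated B cells were higher in old replicate 2 and close to the young level in the others. None of the 13 listed genes passed the threshold. By sign 12 of the 13 were higher, with a median log2 fold change of 0.44 beside -0.0245 over all genes. At an unadjusted p under 0.05, 1 of them was higher, beside 2.19% of all genes. Tbx21 was at 11.7, 49.9 and 14.01 FPKM in old and 3.05, 3.46, 6.97 and 11.7 FPKM in young B cells. Young replicate 4 just passed old replicate 1, so the ages overlapped at their edges (log2 fold change 1.70, SE 0.66, limma adjusted p = 0.721, and 1.08 without old replicate 2). Itgax was at 2.85, 13.4 and 1.67 FPKM against 0.997, 2.12, 2.25 and 2.86 FPKM. Only old replicate 2 stood above the young range, and the log2 fold change of 0.83 (SE 0.52) was 0.11 without that library. Fas, a death receptor, followed the same order, at 15.04, 47.3 and 15.96 FPKM against 8.25 to 18.99 FPKM. The median of the list was 0.03 without old replicate 2 and 0.02 with run as a covariate. It was 0.72 without old replicate 1 and 0.27 without young replicate 1. The run fit also draws on homozygous cells. Averaged over these genes, log2(FPKM + 1) in the second run was 3.73 in old and 3.27 and 3.51 in young wild-type cells. Homozygous cells of that run had 3.02 in old and 3.05 and 2.98 in young. Wild-type young replicates 3 and 4, of the third run, had 3.51 and 3.90.

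Memory and B-1 genes had the same outlying library. Of 12 memory B cell genes 11 were higher by sign (median 0.29, 0.07 without old replicate 2 and 0.50 without old replicate 1). Of 10 genes of B-1 cells, a self-renewing population that makes natural antibody, 8 were higher by sign (median 0.41), and this median stayed at 0.37 without old replicate 2 and 0.44 with run as a covariate. Il10, an immunosuppressive cytokine that B-1 cells can make, was at 0.69, 1.81 and 1.16 FPKM in old and 0, 0.14, 0.19 and 0.23 FPKM in young cells. These values are low but do not overlap (log2 fold change 0.94, SE 0.39, limma adjusted p = 0.729). Il10 was also higher in old wild-type T cells (log2 fold change 1.43) and non-BT cells (1.17), in neither past the threshold. Bhlhe41, a transcription factor of B-1 and memory cells, was at 1.65, 4.83 and 1.63 FPKM against 0.95, 0.60, 1.25 and 0.75 FPKM (log2 fold change 0.88, SE 0.33, and 0.50 without old replicate 2).

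Follicular and marginal zone genes differed little in sum. Of 8 follicular genes 5 were lower by sign, with a median of -0.08 that turned to 0.13 without old replicate 2 and was -0.25 without old replicate 1 or 3. The low library was again old replicate 2. Fcer2a, the CD23 receptor that marks follicular cells, was at 348, 138 and 422 FPKM in old against 351 to 368 FPKM in young cells. Its log2 fold change was -0.39 (SE 0.32), and 0.10 without old replicate 2. Of 13 marginal zone genes 10 were lower by sign (median -0.14, -0.32 without old replicate 2 and -0.07 without old replicate 1). Cd1d1, which presents lipids and is high in marginal zone cells, was at 64.0, 106 and 57.2 FPKM against 75.3 to 101 FPKM, so that old replicates 1 and 3 were under the young range and old replicate 2 above it. In bulk RNA, fewer cells of a type and less RNA per cell cannot be told apart, here and for every list below.

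Germinal centre genes were lower by sign in 10 of 11 cases (median -0.57). The median was -0.46 without old replicate 2, -0.36 without young replicate 3 and -0.33 without young replicate 4. None passed the threshold, and 3 had an unadjusted p under 0.05, all lower, beside 4.07% of all genes. Gcsam, a germinal centre signalling adapter, was at 4.40, 1.76 and 2.79 FPKM against 4.71, 10.7, 12.0 and 27.4 FPKM. Young replicate 4 was highest, and young replicate 1 lay just above the old range (log2 fold change -1.71, SE 0.67, limma adjusted p = 0.729). Neil1, a DNA glycosylase, was at 26.6, 13.2 and 19.8 FPKM against 24.6 to 35.3 FPKM. The spread among young animals was wide: the mean log2 level of the list ran from 2.72 to 4.33 over the 4 young and from 2.91 to 3.20 over the 3 old libraries. Cell cycle genes followed a similar order. Of 32 such genes 30 were lower by sign, with a median of -0.38 that was -0.18 without young replicate 4 and -0.60 without young replicate 1. One had an unadjusted p under 0.05, the replication licensing subunit Mcm7 at 39.2, 44.0 and 42.9 FPKM against 48.9 to 68.9 FPKM. Mki67, a marker of cycling cells, was at 3.24, 8.09 and 3.03 FPKM against 3.55 to 12.1 FPKM, and the ages overlapped. The linker histones Hist1h1b (log2 fold change -0.98, SE 0.30) and Hist1h1d (-1.14, SE 0.39) were lower, and their differences shrank to -0.42 and -0.28 with run as a covariate. Histone transcripts mostly lack a poly(A) tail, which the library kit relies on.

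**Figure D3:**
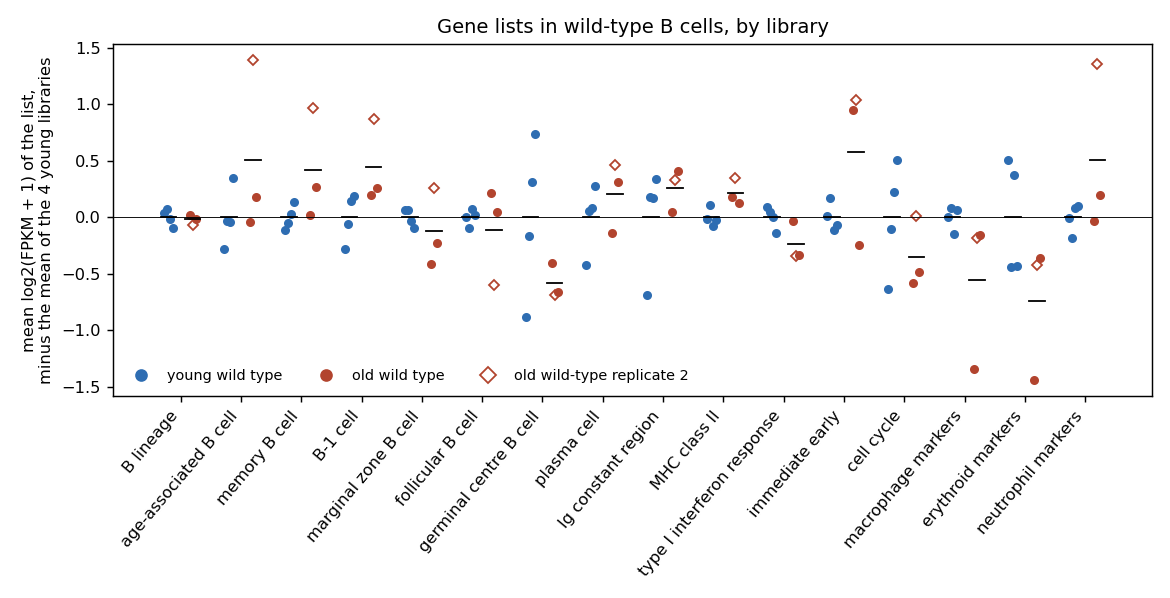
Mean log2(FPKM + 1) of the tested members of 16 gene lists in each wild-type B library, after subtracting the mean of the 4 young libraries; black lines mark group means. Old replicate 2 (open diamond) is the highest library for age-associated, memory and B-1 genes and the lowest for follicular genes, and old replicate 1 is lowest for macrophage and erythroid markers.

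Immunoglobulin transcripts took 20.4, 24.4 and 25.8% of summed FPKM in the old libraries and 16.1, 21.9, 19.8 and 21.04% in the young ones, over 429 genes. The means were 23.5% ± 2.81 (SD, n = 3) and 19.7% ± 2.55 (SD, n = 4). The ages overlapped, and the difference of 3.81 percentage points had a two-sided exact permutation p of 0.143, where 0.0286 is the smallest this design allows. The share of the 12 constant region genes alone was 11.8% ± 1.70 against 9.47% ± 1.05 (exact permutation p = 0.114). Igkc, the kappa constant region, was at 50585, 70520.4 and 68579.9 FPKM against 31899, 46467.5, 44515 and 49581 FPKM. All old values were above all young ones (log2 fold change 0.56, SE 0.25, limma adjusted p = 0.760). After quantile normalization Igkc had a difference of 0, since it ranked highest in every library. Ighm, the IgM heavy chain, was at 11581, 16983 and 20551.5 FPKM against 9374 to 13453 FPKM, and overlapped. The switched isotypes spread within the age groups: Ighg2c was at 617, 1147 and 588 FPKM in old and 101, 802, 932 and 1667 FPKM in young cells, and Igha at 1912, 2287 and 2167 FPKM against 1093 to 2596 FPKM. Of 16 plasma cell genes outside the immunoglobulins 13 were higher by sign and 0 had an unadjusted p under 0.05. Their median of 0.25 was 0.12 without old replicate 2, 0.11 without young replicate 1 and 0.44 without old replicate 1. Jchain, which joins IgM and IgA polymers, was at 1592, 1948 and 2960 FPKM against 1309 to 2253 FPKM, and Xbp1, the plasma cell secretion factor, at 242, 296 and 319.5 FPKM against 204 to 301 FPKM.

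Variable segments report the antibody repertoire, in which each B cell clone uses 1 heavy and 1 light segment. None of 105 heavy, 99 kappa and 3 lambda segments passed the threshold. The median log2 fold change was -0.02 over the heavy and 0.04 over the kappa segments. At an unadjusted p under 0.05, 4 of the 105 heavy segments were higher and 8 lower. Of the 99 kappa segments 7 were higher and 10 lower. Over all genes 2.19% were higher and 4.07% lower at that p. The kappa segment Igkv7-33 differed most. It was at 0.67, 3.95 and 3.22 FPKM in old cells and at 123, 67.0, 11.1 and 14.96 FPKM in young cells. Every young library was above every old one, young replicates 1 and 2 by far (log2 fold change -3.45, SE 0.76, limma adjusted p = 0.526, and -3.75 without old replicate 2). The 3' ends of this segment and of a pair of other lower kappa segments, Igkv9-120 and Igkv9-123, are shown. Counting can share reads between closely related segments such as that pair. The sequences were read from GENCODE M21 transcripts on GRCm38. Capitals mark the codon of the conserved cysteine, with which the junction begins. The bases shown after it are still those of the segment.
Igkv7-33 (chr6:70058632-70059199, minus strand): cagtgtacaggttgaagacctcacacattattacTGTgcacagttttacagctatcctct
Igkv9-120 (chr6:68049983-68050456, plus strand): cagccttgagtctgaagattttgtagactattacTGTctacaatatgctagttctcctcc
Igkv9-123 (chr6:67954228-67954714, minus strand): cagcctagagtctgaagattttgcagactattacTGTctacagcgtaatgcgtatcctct

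The Igkv9-120 and Igkv9-123 transcripts were identical at 306 of 353 bases aligned without gaps (86.7%), and at 48 of the 60 bases shown. Igkv7-33 was less like them, identical at 47.0% and 48.1% of the bases aligned without gaps and at 37 and 40 of the 60 bases shown. Igkv9-120 was at 496, 409 and 469 FPKM in old and 655, 2268, 796 and 923 FPKM in young cells, and young replicate 2 was far above the others (log2 fold change -1.16, SE 0.31, limma adjusted p = 0.640). Igkv9-123 was at 39.2, 14.4 and 22.4 FPKM against 77.5, 60.7, 43.3 and 32.0 FPKM, and overlapped (-1.08, SE 0.30). How reads were divided between the pair is not stated. In the other direction, the heavy segment Ighv5-6 was at 788, 505 and 1073 FPKM against 231, 457, 288 and 370 FPKM (log2 fold change 1.21, SE 0.32, limma adjusted p = 0.640). Igkv6-20, chosen after its values were seen because it was the 1 call when old replicate 1 was left out (adjusted p = 0.0197), was at 370, 1638 and 1697 FPKM against 290 to 517 FPKM.

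MHC class II genes, which present peptides to CD4 T cells, were slightly higher. Of 11 genes 10 were higher by sign, 6 with an unadjusted p under 0.05 beside 2.19% of all genes, and 0 after adjustment. The median log2 fold change was 0.23, and 0.20 without old replicate 2. H2-Oa, part of the chaperone that restrains peptide exchange, was at 275, 335 and 249 FPKM in old and 220, 248, 186 and 208 FPKM in young cells, so that old replicate 3 stood just above young replicate 2 (log2 fold change 0.40, SE 0.12, limma adjusted p = 0.715). H2-DMa, part of the peptide exchange factor, was at 685, 689 and 619 FPKM against 523 to 630.0 FPKM, and young replicate 2 lay above old replicate 3. H2-Ab1, a chain of the classical I-A molecule, was at 12055, 13449 and 11745 FPKM against 9211 to 11680.2 FPKM. Young replicate 2 was the highest young library for all 3 genes. Differences of this size moved with the scaling: after quantile normalization the median of the list was 0.13 and H2-Ab1 differed by -0.01, and with run as a covariate the median was 0.11. Fcgr2b, the inhibitory IgG receptor, was at 176, 300 and 151 FPKM against 126 to 149 FPKM, above the young range in all old libraries (log2 fold change 0.52, SE 0.19, and 0.23 without old replicate 2). Of 25 genes of B cell receptor signalling, the list that holds Fcgr2b, 20 were lower by sign with a median of -0.11.

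Type I interferon response genes were lower by sign in 29 of 35 cases (median -0.25, and -0.16 without old replicate 3), 3 of them with an unadjusted p under 0.05 beside 4.07% of all genes. Oasl1, an interferon-induced inhibitor of Irf7 translation, was at 12.9, 8.64 and 9.11 FPKM in old and 22.0, 20.7, 11.9 and 15.7 FPKM in young cells, with old replicate 1 within the young range (log2 fold change -0.71, SE 0.28, limma adjusted p = 0.729). The viral RNA sensors Ddx58 (RIG-I, -0.33) and Dhx58 (LGP2, -0.42) were the others. The interferon-gamma-induced GTPases had a median of 0.01. Cxcl10, an interferon-induced chemokine, was at 5.66, 34.9 and 5.24 FPKM against 2.53 to 3.78 FPKM. All old libraries were above the young ones, and the log2 fold change of 1.46 (SE 0.54) was 0.63 without old replicate 2.

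Immediate early genes, which cells switch on within minutes of a stimulus or of handling, followed the run of library numbers. Of 19 genes 18 were higher by sign (median 0.44, and 0.97 without old replicate 3). At an unadjusted p under 0.05, 5 were higher, beside 2.19% of all genes. Jun, an AP-1 transcription factor, was at 238 and 343 FPKM in old replicates 1 and 2 and at 69.6 FPKM in old replicate 3, against 66.0, 96.0, 56.7 and 75.0 FPKM in young cells. Fos, its partner, was at 342 and 358 FPKM in old replicates 1 and 2 and at 30.4 FPKM in old replicate 3, under all 4 young libraries (40.5 to 85.2 FPKM). Old replicate 3, whose library number lies next to those of young replicates 1 and 2, thus had the young level of Jun and a lower one of Fos. For Jund and Klf6 too, old replicates 1 and 2 lay above all young libraries and old replicate 3 within the young range. The plot of immediate early genes by run shows this. With run as a covariate the log2 fold change of Jun went from 1.30 to -0.23, that of Fos from 1.43 to -1.33, and the median of the list to -0.20. Age and run cannot be told apart for these genes in old replicates 1 and 2. Heat shock genes had a median of -0.31 (-0.53 without old replicate 1 and -0.16 without old replicate 3) with 0 of 15 at an unadjusted p under 0.05. Dnajb9, a chaperone of the endoplasmic reticulum, was at 42.4, 54.8 and 26.2 FPKM against 11.1 to 28.3 FPKM. The clock gene Arntl (Bmal1) was at 16.3, 11.1 and 13.5 FPKM against 16.9 to 22.6 FPKM, with all old libraries under all young ones (log2 fold change -0.50, SE 0.14, limma adjusted p = 0.640). The hour of collection is not given.

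**Figure D4:**
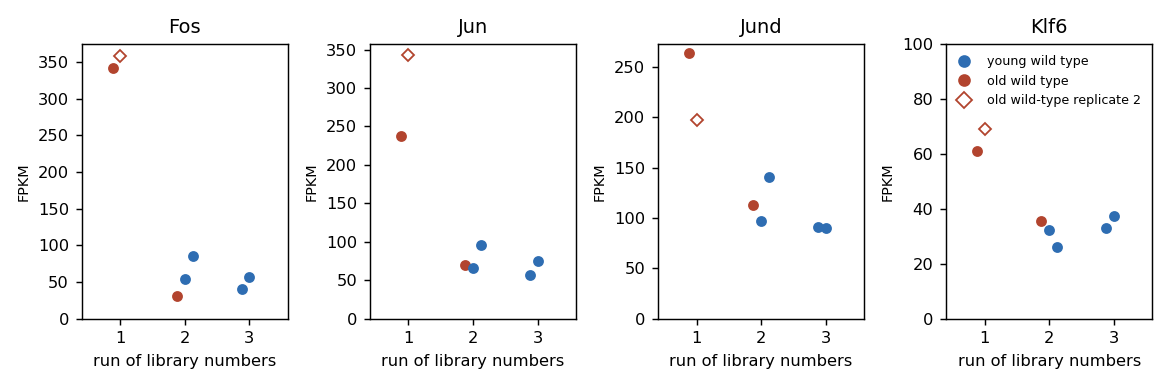
FPKM of Fos, Jun, Jund and Klf6 in each wild-type B library, by the run of library numbers it lies in (x axis). The old libraries of run 1 are high, and the old library of run 2 lies beside the young ones (Fos 30.4 FPKM, Jun 69.6 FPKM).

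The remaining lists stayed near the median of all genes. Among 26 B cell transcription factors the median log2 fold change was -0.01, and 0 had an unadjusted p under 0.05. It was 0.04 over 22 survival and death genes, -0.06 over 20 genes of Toll-like receptors and their partners, and 0.06 over 15 NF-kB genes. Of the survival genes, Bcl2a1b, an anti-apoptotic BCL2 relative, was at 83.0, 123 and 78.0 FPKM in old and 68.9 to 70.1 FPKM in young cells. Its 4 young values were nearly equal and all below the old ones (log2 fold change 0.41, SE 0.18, and 0.21 without old replicate 2). Bcl2a1b has near-identical copies, and how reads were divided among them is not stated. The median was 0.10 over 17 p53 target and senescence genes (-0.08 without old replicate 2), whose Trp53 itself was at 82.9 to 96.7 FPKM in old and 100.2 to 114 FPKM in young cells, without overlap (log2 fold change -0.26, SE 0.09, limma adjusted p = 0.721). Cytokine and chemokine genes had a median of 0.18 over 19 genes, and their receptors one of -0.06 over 32. Il16, a chemoattractant for CD4 cells, was at 209, 163 and 213 FPKM in old and 239 to 273 FPKM in young cells, again without overlap (log2 fold change -0.37, SE 0.12).

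Metabolic and protein-handling lists were flat. The median was 0.01 over 77 cytosolic ribosomal protein genes, -0.01 over 36 complex I subunits, -0.04 over 15 glycolysis genes, 0.08 over 25 genes of the unfolded protein response, -0.02 over 21 antioxidant genes and -0.01 over 27 genes of lysosomes and autophagy. Ctsh, a lysosomal cathepsin, was at 639, 851 and 690 FPKM in old and 537 to 601 FPKM in young cells, and the ages did not overlap (log2 fold change 0.35, SE 0.11, limma adjusted p = 0.721). In homozygous cells its log2 fold change was 0.53. All 13 mitochondrially encoded genes were higher by sign (median 0.24). Their mean log2 level was 6.90 in young replicate 2 and 7.77 to 8.09 in the other 6 libraries, and without young replicate 2 the median was 0.02. MHC class I and peptide loading genes had a median of 0.18 over 18 genes, and 0.06 without old replicate 2. The median was -0.24 over 16 histone genes (-0.08 without old replicate 1 and -0.14 without old replicate 2), -0.01 over 23 genes of DNA methylation and chromatin, 0.20 over 13 clock genes (0.35 without young replicate 3) and -0.10 over 8 glucocorticoid response genes. Of 13 genes of immature and transitional B cells 7 passed the filter, with a median of -0.06.

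Markers of other cells moved with the libraries. Of 17 macrophage markers tested 15 were lower in old cells by sign (median -0.74). At an unadjusted p under 0.05, 8 were lower, beside 4.07% of all genes. None were higher at that p. Their summed FPKM was 376, 924 and 1093 in the old and 1079 to 1418 in the young libraries. Old replicate 1 was far below the others. Axl, a receptor for dying cells, was at 13.3, 30.7 and 44.7 FPKM against 51.9 to 69.6 FPKM, and Vcam1 at 44.8, 69.1 and 98.3 FPKM against 121 to 150.2 FPKM. Without old replicate 1 the median of the list was -0.33. Erythroid markers summed to 87.7, 281 and 298 FPKM against 262 to 1075 FPKM, and Hba-a1, an alpha globin, was at 17.9, 91.9 and 79.4 FPKM against 78.2 to 401 FPKM. Neutrophil markers summed to 21.1, 82.4 and 25.4 FPKM against 15.3 to 22.4 FPKM, with old replicate 2 above all others. Monocyte markers, too, were highest in old replicate 2, at a sum of 663 FPKM against 313 to 493 FPKM in the other 6 libraries. Old replicate 2 was thus the library with the most Tbx21 and Itgax and also with the most neutrophil and monocyte marker RNA, and the part of those cells in its values was not tested. T cell markers summed to 406 to 590 FPKM in old and 381 to 452 FPKM in young cells. Among 17 T cell markers tested, 12 were lower and 5 higher by sign. Every old library lay below every young one for 2 of them and above for 1, beside 4.27% and 2.22% of all genes. Cd3e was lower in every old library, at 0.61 to 0.79 FPKM against 1.27 to 2.80 FPKM. The 5 NK cell markers tested were split by sign, 3 lower and 2 higher. Gzma, a granule protease of NK and T cells and 1 of the lower ones, was at 0.52 to 1.54 FPKM against 2.47 to 3.89 FPKM. The markers of conventional dendritic cells (10 tested, median 0.02), plasmacytoid dendritic cells (8, 0.11) and NK cells (5, -0.12) were near the median of all genes. Of 16 stromal and endothelial markers 3 passed the filter, and Col1a1, Col1a2, Col3a1, Pdgfra and Ccl21a were at 0 in all 7 libraries. Platelet and basophil markers had 2 tested members each.

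The same comparison in homozygous B cells shares no library with this one, but it is not a separate repeat. Its libraries lie in the same runs by age and replicate number. Both comparisons come from the same fit and share its estimate of the spread. The homozygous comparison gave 2 calls of 12269 genes (0.0163%), Wdr90 and the pseudogene Gm44389, both lower in old cells. Wdr90, a centriole protein, was at 1.90, 3.32 and 2.62 FPKM in old and 6.27 to 7.32 FPKM in young homozygous cells (limma adjusted p = 0.0497). In wild-type cells it was at 6.91, 6.19 and 7.56 FPKM against 7.39 to 8.94 FPKM, a log2 fold change of -0.22 (SE 0.16). The test of the difference between the genotypes called 0 of 12269 genes (0%), with no adjusted p under 0.417, and 868 genes (7.07%) had an unadjusted p under 0.05. Of the 20 genes with the smallest p in wild type, 13 had the same sign in homozygous cells. An unadjusted p under 0.05 was found there for 5 of the 20, beside 1751 of all 12269 genes (14.3%), and 4 of these 5 had the sign of the wild type. The exception was Gm22973, with a log2 fold change of -1.15 beside 2.73. Rgmb was at 5.51 to 6.498 FPKM in old and 2.14 to 3.53 FPKM in young homozygous cells, with a log2 fold change of 0.92 beside 0.95 in wild type. Fbxl20 had one of 0.13 beside -1.02.

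Of the 51 lists 25 had a larger share of members at an unadjusted p under 0.05 for the difference between genotypes than the 7.07% of all genes, with 0 members after adjustment in each. Glycolysis genes had 8 of 15 such members, germinal centre genes 5 of 11, heat shock genes 5 of 15, cell cycle genes 8 of 32 and histone genes 4 of 16. Ribosomal protein genes had 9 of 77 and type I interferon response genes 4 of 35. The median log2 fold change of germinal centre genes was -0.57 in wild-type and 0.99 in homozygous cells. Gcsam had a log2 fold change of 1.14 in homozygous cells beside -1.71 in wild type, and this difference between the genotypes did not pass the threshold. Igkc, Tbx21 and the MHC class II genes had the same direction in both genotypes: the log2 fold change of Igkc was 0.65 in homozygous cells, that of Tbx21 1.38 and that of H2-Oa 0.42. Old homozygous replicate 2 lacked Y-linked RNA as well and was the highest old homozygous library for Tbx21 (34.7 FPKM), Itgax and Igkc.

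**Figure D5:**
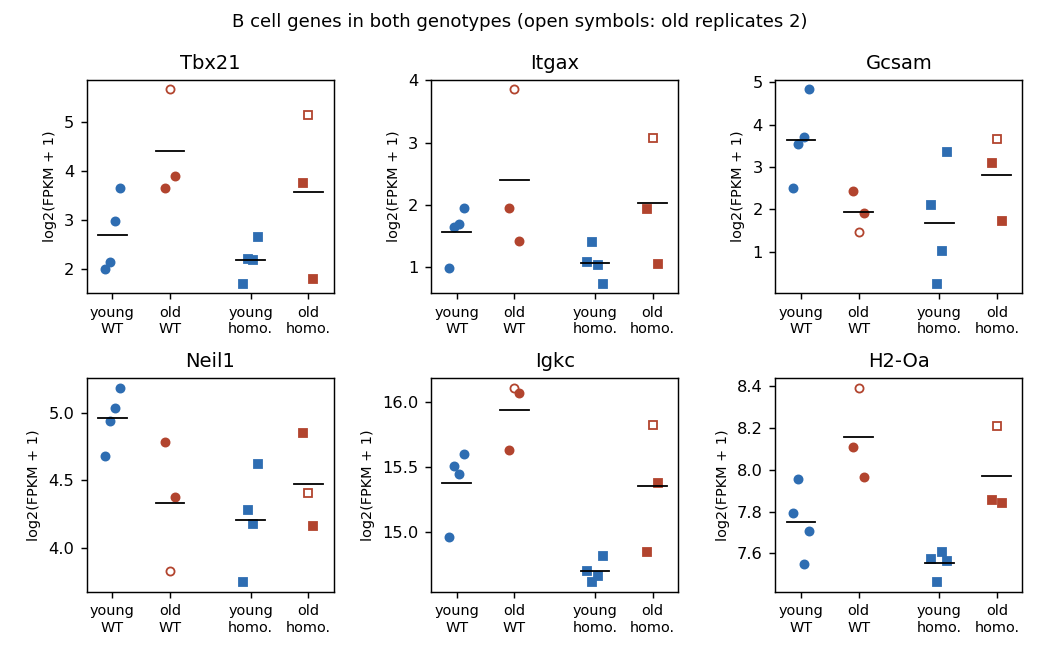
Log2(FPKM + 1) of 6 genes in young and old B libraries of both genotypes; black lines mark group means, and open symbols mark the old replicates numbered 2. Tbx21, Itgax, Igkc and H2-Oa are highest in old replicate 2 of each genotype, and the mean of Gcsam is lower in old wild-type and higher in old homozygous cells.

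Fitted together with the wild-type T cell and non-BT libraries of the same ages and replicate numbers, B cells again had 0 calls of 14287 genes (0%). The lowest adjusted p was 0.0999, and 984 genes had an unadjusted p under 0.05. T cells had 132 calls (0.924%) and non-BT cells 238 (1.67%), with the same numbers of libraries. Those counts do not by themselves show that the cell types differ. The test of the difference called 4 genes (0.028%) between B and T cells and 23 (0.161%) between B and non-BT cells. Without old animal 2 these counts were 0 and 6, and 4 of the 6 were among the 23.

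Those 4 were Ppm1j, Samd3, Klrc2 and Lyz1. Lyz1, a lysozyme gene, was at 4.96, 10.4 and 6.16 FPKM in old and 2.59, 0.80, 1.90 and 2.49 FPKM in young B cells, and at 21.7, 8.70 and 23.3 FPKM against 40.1 to 49.7 FPKM in non-BT cells. It was higher in all old B libraries and lower in all old non-BT libraries (difference of log2 fold changes 2.86, SE 0.43, limma adjusted p = 0.00965, and 0.0176 without old animal 2). Lyz1 has a near-identical neighbour, Lyz2, and reads may be shared. Ppm1j, Samd3 and the NK cell receptor Klrc2 stood at or under 0.43 FPKM in every wild-type B library and fell in non-BT cells, so their difference came from non-BT cells. Tbx21 had a log2 fold change of 1.70 in B and -1.38 in non-BT cells, where it marks NK cells (difference 3.09, SE 0.58, limma adjusted p = 0.035, and 0.161 without old animal 2). Ccl24 was at 0.30, 0.10 and 0.98 FPKM in old and 2.57 to 4.49 FPKM in young B cells, with a difference of -2.34 from non-BT cells (SE 0.35, limma adjusted p = 0.00965, and 0.0991 without old animal 2). Zcchc18, one of the 4 genes that differed from T cells, was at 44.5, 42.3 and 39.4 FPKM in old and 43.9 to 58.3 FPKM in young B cells, but at 35.2 to 45.3 FPKM in old and 17.6 to 20.96 FPKM in young T cells (limma adjusted p = 0.0104). The old B values of Zcchc18 lay within the range of old T cells, and the young B values reached above it.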

How the data were processed

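Spleen B cells of old and young mice were sequenced by the authors with a SMART-Seq HT and Nextera XT protocol, per the labels' protocols, without strand or molecular identifiers. The authors deposited FPKM for each library, and the tools named in the submitters' processing notes are Cufflinks 2.2.1, Cuffdiff and HISAT2 2.1.0, with build GRCm38.p4. The annotation release is not given in the sources used here. Of 47719 identifiers 47305 matched GENCODE M21, which supplied symbols and GRCm38 coordinates. Counts were not used here, so depth was estimated from the smallest FPKM steps. Precision is limited by the number of libraries.

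Log2(FPKM + 1) was fitted in R 4.3.3 using limma 3.58.1 (trend, two-sided, Benjamini-Hochberg, 0.05) over 14 B libraries in 4 groups, for genes at 1 FPKM or more in at least 3. This scale understates the fold changes of low genes. The 21 wild-type libraries were fitted with the animal label as a block (correlation 0.0611). The script was tested on simulated data. The 51 lists (880 genes) and the comparison were chosen with earlier results of these data known. Since under 10 genes passed, the 20 with the smallest unadjusted p were named, and other list members were chosen after their values were seen. Same-numbered old and young libraries did not deviate together (correlations -0.109, 0.001 and 0.07), so numbers were not taken as pairs. Alternatives changed the pseudocount, filter, scaling, covariates and libraries. Some list members are not reported here.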

Additional observations from a re-analysis of the deposited data

Results flagged for a closer look

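Of 138 sets of 4 young values checked with Dixon's ratio, 14 had an isolated highest or lowest library. Chance gives about 1 in 20 only for separate sets of normally distributed values. Many of these sets were FPKM of genes named by the same values, and some sets shared genes. The 14 therefore cannot be set against that rate. Young replicate 2 was the isolated one for 7 of them: Gm22973 (2.01 FPKM), Gm20538 (4.03), Gm37939 (1.02), Jund (140.5), Ddx3y (23.2), Igkv9-120 (2268) and the mean log2 level of plasmacytoid dendritic cell markers (4.92). Young replicate 1 was isolated for 5: Nr3c2 (2.60 FPKM), Gm5228 (0.63), Ighm (9374), the mean log2 level of immunoglobulin constant region genes (9.41) and the constant region share of FPKM (7.91%). Young replicate 3 was isolated for Igkv4-86 (128 FPKM) and young replicate 4 for Clu (5.45 FPKM).

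The age difference itself differed between cell types for 4 genes (B against T cells) and 23 genes (B against non-BT cells). Among the 23 were the T cell genes Cd3e, Cd40lg, Izumo1r and Trav14-2 and the NK cell genes Nkg7, Klra9 and Klrc2. Each of these had a larger log2 fold change by size in non-BT than in B cells. Examples are Cd3e (1.62 in non-BT and -0.82 in B cells) and Klra9 (-1.64 and 0.28). The 23 also held immunoglobulin variable segments, such as Igkv3-9 (4.71 and 1.04).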

How the results depend on the processing

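Over 19 alternatives the count of genes changed between old and young wild-type B cells was 0, except 1 without old replicate 1 (range 0 to 1 over the left-out libraries) and 3 in the second run alone, which pools both genotypes. With a replicate block it was 0. The count in homozygous cells was 0 with a pseudocount of 0.1, 15 after quantile normalization, 41 after rescaling without immunoglobulin genes, and 1 after median-ratio scaling. The difference between genotypes had 1 call with no filter. The B against T cell count was 2 after quantile normalization and 0 without old animal 2, and the B against non-BT count 14 without the animal block and 6 without old animal 2.

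Some named genes reversed sign. With run as a covariate Itgax was at -0.11, Jun at -0.23, Jund at -0.14, Fos at -1.33, Psmb10 at -0.0027 and Fcer2a at 0.26. The run terms of that fit came from B libraries of both genotypes. Fcer2a was at 0.099 without old replicate 2 (also of both genotypes), in a range of -0.71 to 0.099 over the left-out libraries. After quantile normalization Igkc was at 0, Ighm at -0.154 and H2-Ab1 at -0.015. Ighg2c was at -0.0096 with array weights and -0.53 without young replicate 1 (range -0.53 to 0.82), and Jchain at -0.013 without old replicate 3 (range -0.013 to 0.43). The causes were not tested.

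Old replicate 2 differs in sex and old replicates 1 and 2 lie in a run with no young library. Precision fell with level: intervals under 10 FPKM were the widest, with a median half-width of 0.609 on the log2 scale.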
